A study of Mus musculus with 4 samples.

Results

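The genes described here encode the AP-1 transcription factors: Fos, Fosb, Fosl1 and Fosl2 of the Fos family, Jun, Junb and Jund of the Jun family, and Atf3, a relative that can join the same dimers. Every probe set to which the array's annotation table gave 1 of these symbols and no other was kept. This gave 12 probe sets for 8 genes, out of 12488 probe sets on the array. Of the 12, 4 were dim, with a mean signal over the arrays below 142.9, the 40th percentile of the array, and 8 probe sets of 7 genes were tested.

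The samples were visual cortex of wild-type C57Bl6 mice, 5 in all, which lived in the dark from birth. On postnatal day 42 they lost 1 eye and moved to a normal cycle of light and dark, and they were killed 4 days later, on postnatal day 46. The deprived group is the cortex opposite the removed eye, and the non-deprived group the cortex on its side. Both groups therefore shared the dark rearing, the surgery and the first days of light, and differed in whether the remaining eye was the opposite one or the one on the same side. Each group had 2 arrays, each of pooled tissue, and the 4 samples held no cortex that had stayed in the dark and none with both eyes intact. In the mouse most fibres of the optic nerve cross, so each visual cortex is driven mainly by the opposite eye, while its binocular zone also receives the eye of its own side. The deprived cortex thus kept part of its visual drive.

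AP-1 is a dimer of basic leucine zipper proteins. Fos proteins cannot pair with each other and need a Jun partner, whereas Jun proteins can also pair among themselves. In cortical neurons several members, Fos, Fosb and Junb among them, are immediate-early genes. Calcium and MAP kinase signals that follow firing switch such genes on within minutes through CREB and the serum response factor, without new protein synthesis. The members named are examples, and Jun is not thereby excluded. Jund is known as a more steadily expressed member, and Atf3 as a stress- and injury-induced gene that can repress transcription.

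Upstream sequences of Fos and Junb, which differed most between the groups, are shown with that of Jun, a member without such a difference. The sequences come from RefSeq, build GRCm38.p6, and each covers the 250 bases before the annotated start, written from 5′ to 3′ on the gene's strand. Fos lies at chr12:85473640-85473889 (+ strand), Junb at chr8:84978749-84978998 (- strand) and Jun at chr4:95052223-95052472 (- strand). Capitals mark the half-site of the cAMP response element (CRE) in Fos and Junb, the TATA box in Fos, and an AP-1-like site in Jun.
Fos: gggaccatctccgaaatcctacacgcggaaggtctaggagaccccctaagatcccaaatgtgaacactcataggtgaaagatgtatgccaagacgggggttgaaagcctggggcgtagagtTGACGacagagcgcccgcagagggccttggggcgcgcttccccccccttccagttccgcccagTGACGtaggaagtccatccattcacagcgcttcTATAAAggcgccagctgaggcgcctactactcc
Junb: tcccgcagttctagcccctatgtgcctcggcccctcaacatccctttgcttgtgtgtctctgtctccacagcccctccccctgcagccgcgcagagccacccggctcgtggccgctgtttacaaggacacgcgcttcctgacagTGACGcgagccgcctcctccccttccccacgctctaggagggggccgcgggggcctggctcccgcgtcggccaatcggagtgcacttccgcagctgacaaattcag
Jun: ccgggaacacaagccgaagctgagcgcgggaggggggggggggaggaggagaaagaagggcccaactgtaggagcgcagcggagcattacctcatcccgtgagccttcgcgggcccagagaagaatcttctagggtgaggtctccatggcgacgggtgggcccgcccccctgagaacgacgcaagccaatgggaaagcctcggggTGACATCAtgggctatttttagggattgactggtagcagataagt

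The RefSeq table held 7 of the 8 genes, all but Fosl1. In the 250 bases upstream, 6 motifs were searched on both strands. The CRE half-site, TGACG, which CREB-type factors can bind, stood in 4 of the 7: at 2 places in Fos, beginning at positions -129 and -66 from the start, and at 1 place each in Junb (-106), Fosb (-60) and Atf3 (-7). It also stood in 17.8% of 32851 upstream sequences of the same length. The TATA box, TATAAA, was found in Fos alone of the 7 and in 12.4% of all sequences, and the AP-1-like site, TGACATCA, in Jun alone and in 2.93%. Only this 1 spelling of an AP-1-like site was searched, so other AP-1-like sequences are neither counted nor marked. None of the 7 held the full CRE, TGACGTCA, which contains the half-site (1.55% of all sequences), the AP-1 site itself, TGACTCA or TGAGTCA (4.46%), or the CArG box of the serum response factor (1.47%). Such a match describes letters in the window and is not a measured binding site. A motif further upstream than 250 bases was not searched for, so a motif not found here may still stand elsewhere in the promoter.

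**Figure D1:**
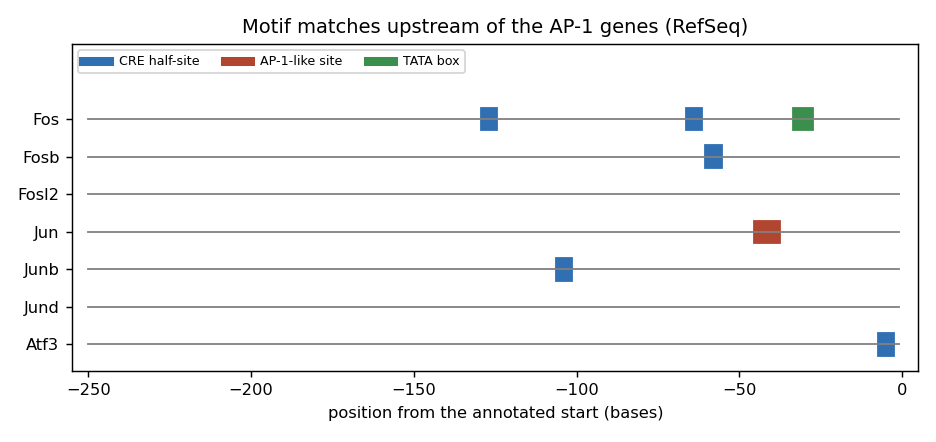
Motif matches in the 250 bases upstream of the 7 AP-1 genes in the RefSeq table, by position from the annotated start in bases. Each box is 1 match and its colour the motif; 4 genes hold a CRE half-site, Jun holds an AP-1-like site, and Fosl2 and Jund hold none of the 6 motifs.

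Deprived cortex held less Fos and Junb mRNA, by 2.60-fold for Fos and by 2.48-fold and 2.39-fold at the 2 Junb probe sets. Their tested relatives Fosb, Fosl2, Jun, Jund and Atf3 did not pass the test. The signals are MAS5 values in arbitrary units. Differences are given on the log2(signal + 60.6) scale, deprived minus non-deprived, which understates changes at low signal. A call means an adjusted p under 0.05 in limma, with Benjamini-Hochberg adjustment over all 7458 probe sets tested. Of these, 0.107% were called lower and 0 were called higher, against 3 of the 8 AP-1 probe sets called lower, 2 of them of Junb. At an unadjusted p under 0.05 in limma, 132 probe sets were higher and 273, or 3.66%, lower. The latter included 4 of the 8 AP-1 probe sets, again with both of Junb.

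Fos, whose protein is the classical partner of Jun, read 1107 on deprived array 1 and 1352 on deprived array 2, against 3019 and 3568 on the respective non-deprived arrays. The groups did not overlap, and the higher deprived array lay well under the lower non-deprived one. Their means were 1229 ± 174 and 3293 ± 387 (SD, n = 2 per group). The limma estimate was -1.38 ± 0.18 (SE), with a 95% interval from -1.77 to -0.99 and an adjusted p of 0.020, the second smallest p of all probe sets tested. In each group array 2 was the brighter, by 1.22-fold in deprived and 1.18-fold in non-deprived cortex. The differences within the same-numbered pairs were nearly equal, at -1.40 and -1.36, and those of the crossed pairs were -1.64 and -1.12.

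A further Fos probe set was dim. It read 101.8 and 34.5 on the deprived arrays and 155.4 and 117.2 on the non-deprived arrays. Both deprived arrays were again the lower, but the deprived arrays differed from each other about as much as the groups did. In a fit without the filter on dim probe sets its estimate was -0.66 ± 0.52 (SE), with an adjusted p of 1.00 in limma.

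Junb, a Jun-family protein that pairs with Fos and can restrain Jun, was read by 2 probe sets designed from the same sequence record, so they are not independent. Their names on the array carry the letters i and r, whereas that of the tested Fos probe set carries no such letter. How specific their probes are for Junb was not examined. At the dimmer of them the deprived arrays read 942 and 1029 and the non-deprived arrays 2283 and 2798. At the brighter they read 1151 and 1356 against 2744 and 3426. Neither probe set showed any overlap of the groups, and as for Fos array 2 was the brighter within each group. The estimates were -1.31 ± 0.18 and -1.26 ± 0.18 (SE), with adjusted p of 0.023 and 0.030 in limma, and the 4 pairs of arrays ran from -1.51 to -1.11 and from -1.53 to -0.99.

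The 3 calls depended on the scaling and on the variance model. After quantile normalization the adjusted p in limma was 0.059 for Fos and 0.088 for both Junb probe sets. With arrays scaled to a common median it was 0.36 for Fos and for the dimmer Junb probe set and 0.49 for the other. Without the trend of variance with signal it was 0.73 for each of the 3. The size of the differences hardly moved under these settings, from -1.36 to -1.39 for Fos. Leaving out non-deprived array 2 took the brighter Junb probe set to -1.10 with an adjusted p of 0.057, while Fos had 0.012 and the dimmer Junb probe set 0.043 without it. A two-sided exact permutation test of 2 arrays against 2 cannot give a p under 0.333, so the calls rest on variances shared across probe sets.

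**Figure D2:**
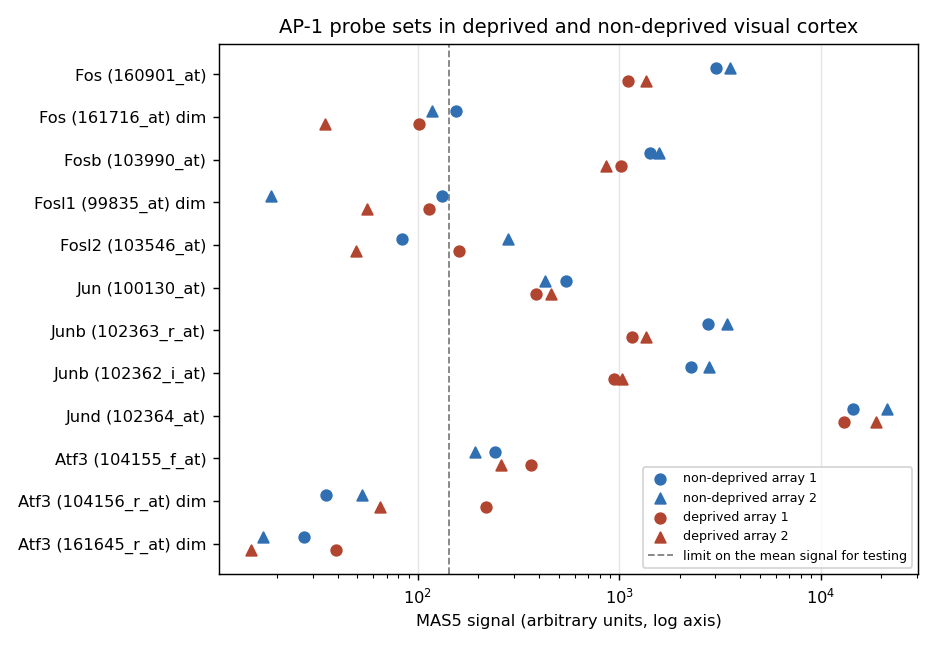
MAS5 signal on a log axis of each AP-1 probe set on the 4 arrays, with deprived arrays in red, non-deprived arrays in blue, circles for array 1 and triangles for array 2. For the tested Fos probe set, Junb and Fosb both deprived arrays lie left of both non-deprived arrays. The dashed line is the limit of 142.9 on the mean signal. Probe sets marked dim have a mean below it, though single arrays can lie on either side.

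Fosb encodes a Fos relative whose truncated form, ΔFosB, is known to build up with repeated stimulation. Its signal was 1020 on deprived array 1 and 862 on deprived array 2, against 1428 and 1585 on the respective non-deprived arrays. All 4 pairs of arrays were lower in deprived cortex and the groups did not overlap, but the difference did not pass the test. The estimate was -0.65 ± 0.19 (SE), with a 95% interval from -1.06 to -0.24 and an adjusted p of 0.48 in limma. The probe set does not separate full-length from truncated Fosb as far as its annotation tells.

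Fosl2, which encodes Fra-2, read 160.2 and 49.2 on the deprived arrays and 83.4 and 279.2 on the non-deprived arrays. The arrays of each group lay further apart than the groups did, with a replicate ratio of 3.35 in non-deprived cortex. Its mean of 143.0 was just above the limit for testing, and the nearest AP-1 probe set below it was the dim Fos probe set at 102.2. The estimate of -0.51 ± 0.67 (SE, adjusted p = 0.999 in limma) had an interval from -1.98 to 0.96, and it turned to 0.11 without non-deprived array 2. Fosl1, which encodes Fra-1, was dim, at 113.9 and 56.2 in deprived and 131.2 and 18.7 in non-deprived cortex, and its groups overlapped.

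Jun, the founding Jun-family gene, read 386.7 and 456 on the deprived arrays and 542.7 and 428.1 on the non-deprived arrays. The groups overlapped, since deprived array 2 lay above non-deprived array 2. Its estimate was -0.18 ± 0.27 (SE), with a 95% interval from -0.76 to 0.41 and an adjusted p of 0.999 in limma. That interval still allows a fall of Jun larger than the estimate for Fosb.

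The signal of Jund was 13006 on deprived array 1 and 18919 on deprived array 2, against 14402 and 21283 on the respective non-deprived arrays. Here the replicate number went with more of the spread than the side of the brain: array 2 was 1.45-fold and 1.48-fold brighter than array 1 in the respective groups. Within the same-numbered pairs the differences were small and alike, at -0.15 and -0.17. The estimate was -0.16 ± 0.27 (SE), with an interval from -0.74 to 0.43 and an adjusted p of 0.999 in limma. It turned to 0.11 without deprived array 1 and to 0.12 without non-deprived array 2.

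Atf3 was the 1 tested AP-1 gene with a higher signal in deprived cortex. Its tested probe set read 364.6 and 260.1 on the deprived arrays and 242.7 and 191.6 on the non-deprived arrays. The groups did not overlap but came close, and the estimate of 0.42 ± 0.37 (SE) did not pass, with an interval from -0.40 to 1.23 and an adjusted p of 0.999 in limma. The letter f in its name on the array marks a probe set that can match a family of related sequences, so its signal may not come from Atf3 alone. A dim Atf3 probe set from the same sequence record read 218.5 and 65 against 34.9 and 52.5, high on deprived array 1 in particular. The remaining Atf3 probe set, also dim, read 39.3 and 14.8 against 27.1 and 17.1, and its groups overlapped.

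**Figure D3:**
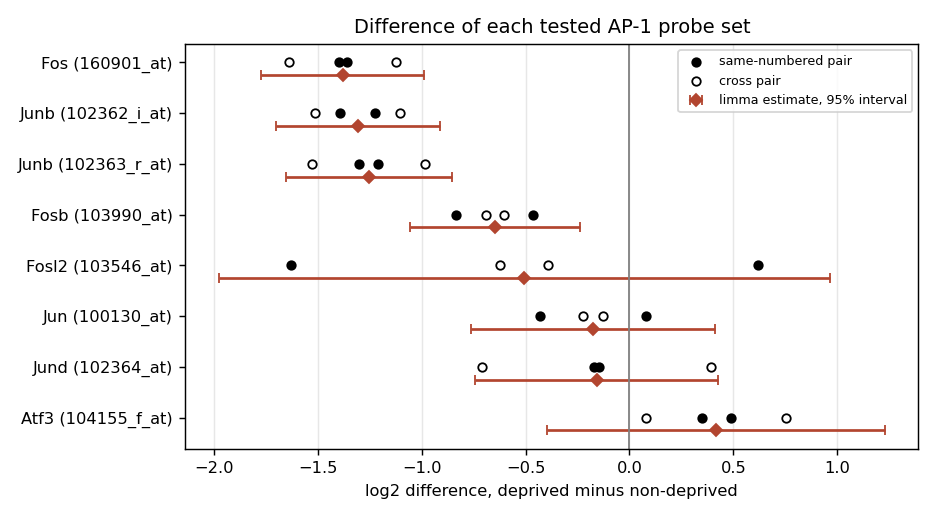
Difference of each tested AP-1 probe set on the log2(signal + 60.6) scale, deprived minus non-deprived. Filled circles are the same-numbered pairs of arrays, open circles the crossed pairs, and red diamonds with bars the limma estimates with 95% intervals; those of Fos and Junb lie furthest left, from -1.38 to -1.26, and those of Fosl2, Jun, Jund and Atf3 have intervals that include 0.

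Across the 8 tested AP-1 probe sets, 7 were lower and 1 was higher in deprived cortex, with a median of -0.58. Among all 7458 tested probe sets 49.8% were lower, with a median of 0.00. Both deprived arrays lay under both non-deprived arrays for 4 of the 8, against 17.1% of all tested probe sets, and above them for 1 of the 8, against 15.1%. Junb enters these numbers at both its probe sets, which are not independent. With only its brighter probe set, the middle value of the 7 genes is that of Fosl2, -0.51. In single pairs of arrays the AP-1 median ran from -1.07 to -0.45. It was -0.34 over all 12 probe sets when the dim ones were kept, and -0.95 over the 6 that passed a stricter filter at the 60th percentile.

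Members were also set against each other within each array, in 6 comparisons of tested probe sets. The Fos difference was more negative than that of Jun by 1.20 on the log2 scale, in 4 of 4 pairs of arrays, which ran from -1.51 to -0.90. It was more negative than that of Fosb by 0.73 (4 of 4 pairs). For Junb, read at its brighter probe set, the difference was more negative than that of Jun by 1.08 and than that of Jund by 1.10, each in 4 of 4 pairs. Fos and Junb lay close together, 0.13 apart, and Fosb and Jun were 0.47 apart with pairs from -0.91 to -0.03. Each of the 6 comparisons gave a two-sided exact permutation p of 0.333, the smallest this design allows, and 0.333 after adjustment, so none is shown to exceed the spread between arrays by this test.

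Likeness to the Fos pattern was measured as the distance, over the 4 arrays, between log2 values centred on their mean. This distance includes the difference between the groups, so probe sets near Fos are lower in deprived cortex by selection. Their tests of that same difference are therefore no separate support. The 2 Junb probe sets ranked 2 and 3 among all other tested probe sets, at 0.14 each. Outside the AP-1 genes the nearest 5 were St6galnac6 (0.12), a sialyltransferase, Rab5b (0.14), a GTPase of early endosomes, Nans (0.15), which makes sialic acid, the immediate-early factor Egr2 (0.19) and the secretoglobin Scgb1a1 (0.22). None of these 5 passed the test, with adjusted p from 0.063 for Egr2 to 0.94 for Scgb1a1 in limma. Rab5b read 75.3 and 125.9 on the deprived arrays, and Scgb1a1 45.5 and 82.5, under the limit of 142.9 on the mean signal. Their non-deprived arrays read 340.6 and 388.1, and 193.5 and 256.5, which brought the means above it. St6galnac6 read 123.5 on deprived array 1, while Nans and Egr2 lay above the limit on all 4 arrays. Likeness to Fos at such low signals may reflect background. With the replicate number as a block Nans and Egr2 passed, at adjusted p of 0.032 and 0.0038, as did Fos and both Junb probe sets, in a fit that called 0.523% of all tested probe sets lower. Of the other AP-1 genes, Fosb ranked 247, Jund 1704, Jun 1758, Fosl2 3477 and Atf3 6574.

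Regulators that switch Fos and Jun genes on, from MAP kinases to the serum response factor partners, had 19 tested genes of 31 listed. Taking each gene at its brightest probe set, 0 were called and the median was -0.11, with 7 higher and 12 lower. Before adjustment, 3 of the 19 were lower with a p under 0.05 in limma, against 3.66% of all tested probe sets. They were Mapk9, a Jun N-terminal kinase, at -1.11 ± 0.30 (SE), Map2k4, a kinase that activates Jun N-terminal kinases, at -0.69 ± 0.23, and the calcium-activated kinase gene Camk2a at -0.62 ± 0.21. Mapk8, another Jun N-terminal kinase, gave -0.28 ± 0.19. Their adjusted p in limma ran from 0.39 to 0.99.

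The leucine zipper families that can supply partners (ATF, CREB, Maf, C/EBP and others) had 21 tested genes of 34 listed, with 0 called and a median of -0.00. Dbp and Tef, PAR-domain factors under control of the circadian clock, gave 0.74 ± 0.23 and 0.47 ± 0.20 (SE), the small Maf gene Mafk -1.08 ± 0.43, and Atf2, a partner of Jun, -0.32 ± 0.20. At an unadjusted p under 0.05 in limma 2 were higher and 1 was lower. Of all 7458 tested probe sets 132 were higher and 273, or 3.66%, lower at this limit.

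Cofactors and turnover factors of AP-1 had 9 tested genes of 16 listed, 4 lower and 5 higher, with a median of 0.03. Cop1, a ubiquitin ligase that marks Jun for degradation, read 937 ± 189 in non-deprived and 387 ± 66.8 in deprived cortex (SD, n = 2 in each). It was not called (-1.15 ± 0.25, SE, adjusted p = 0.17 in limma), but was with the replicate number as a block (adjusted p = 0.047). The coactivator gene Crebbp gave 0.56 ± 0.22, Ets2 0.32 ± 0.26 and Smarcd1 -0.18 ± 0.19. Before adjustment, 1 of each direction had a p under 0.05 in limma, against 132 higher and 273 lower (3.66%) of all 7458 tested probe sets.

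Genes described as AP-1 targets had 21 tested genes of 32 listed, 10 lower and 11 higher, with a median of 0.04. None was called in limma, and 0 had an unadjusted p under 0.05. The metallothionein genes Mt2 and Mt1 gave 0.31 ± 0.18 and 0.29 ± 0.18 (SE), the secretogranin gene Scg2 -0.28 ± 0.19 and the metalloproteinase inhibitor Timp1 -0.29 ± 0.20.

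Other immediate-early transcription factors had 10 tested genes of 17 listed, 8 lower and 2 higher, with a median of -0.58, and 0 were called in limma, with 6 lower at an unadjusted p under 0.05. Nr4a1 and Egr2 gave -1.14 ± 0.19 and -1.26 ± 0.22 (SE). For both the adjusted p in limma was 0.063, or 0.0038 with the replicate block. Btg2, an antiproliferative early gene, gave -0.75 ± 0.19 and passed with the block (adjusted p = 0.034), and Egr1 gave -0.65 ± 0.17. Both deprived arrays lay under both non-deprived arrays for 8 of the 10, against 17.1% of all tested probe sets, and the 6 of 10 lower before adjustment stand against 3.66%.

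**Figure D4:**
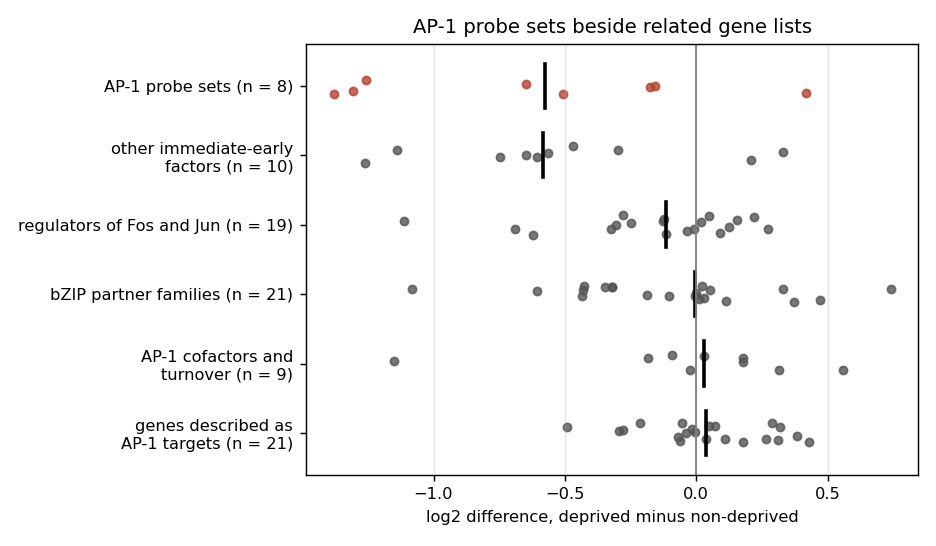
Log2 differences, deprived minus non-deprived, of the 8 tested AP-1 probe sets and of the tested genes of 5 related lists, each gene at its brightest probe set. Points are probe sets, spread vertically at random, and black bars are medians. These are -0.58 for the AP-1 probe sets, -0.58 for the other immediate-early factors and between -0.11 and 0.04 for the other 4 lists. Junb enters the AP-1 row at both its probe sets, unlike the genes of the lists.

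The arrays had median signals from 189.9 to 245.7, and no pair shared more than 13 equal signals. Markers of cortical neurons were present in both groups: Nrgn and Tbr1 of excitatory cells, and Sst and Pvalb of inhibitory cells. Each of 7 marker lists was read at its 2 brightest genes, the others being Aldoc, Gja1, Mbp, Mobp, C1qc, Ctss, Cldn5, Flt1, Prkcd and Tcf7l2, and these 14 genes lay between -0.32 and 0.47 with adjusted p of 0.69 or more in limma. Dimmer members of these lists lay further from 0: Grin2b and Camk2a of the excitatory list gave -1.51 and -0.62, Vip of the inhibitory list -1.19 and Slc1a2 of the astrocyte list -0.997. For these 4 genes both deprived arrays were below both non-deprived arrays, as for 17.1% of all tested probe sets. None of the 4 was called (adjusted p from 0.55 to 0.89 in limma), and they are named here after their values were seen. On the deprived arrays Grin2b read 91.7 and 70.2 and Vip 80.4 and 88.5, under the limit of 142.9 on the mean signal. Their non-deprived arrays, at 255.9 and 451.7 and at 313.4 and 230.4, brought the means above it. Camk2a and Slc1a2 lay above the limit on both deprived arrays. Of the excitatory genes 5 of 6 were lower, and of the inhibitory genes 6 of 7. The median differences were -0.22 for 6 excitatory, -0.20 for 7 inhibitory, -0.03 for 6 astrocyte, 0.06 for 7 microglia and 0.05 for 4 endothelial genes, and 0.14 for 3 genes of neighbouring regions. Myelin genes had a median of 0.27, with 5 of 6 higher. Their summed signal was 14435 and 13402 on the deprived arrays and 12107 and 11152 on the non-deprived arrays, without overlap. The summed inhibitory markers did not overlap either, at 15328 and 18661 in deprived against 18750 and 20473 in non-deprived cortex. The actin 5′ over 3′ signal ratio, which reflects RNA integrity, was 0.544 and 0.463 on the deprived arrays and 0.638 and 0.632 on the non-deprived arrays, and that of Gapdh was 0.745 and 0.689 against 0.875 and 1.07. The myelin sum was thus higher, and the inhibitory sum, these 4 neuronal and astrocyte genes and both ratios lower, on the arrays where Fos and Junb were lower, and their part in that result was not tested. In tissue of mixed cells, fewer cells of a type and less RNA per cell cannot be told apart.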

How the data were processed

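Biotin-labelled cRNA from about 10 µg of total RNA was hybridised to Affymetrix arrays. The authors deposited linear intensities, 1 MAS5 signal per probe set, per the submitters' processing notes, which give no version, scaling target or detection calls. Symbols came from the platform's annotation table and were updated through Entrez identifiers in a RefSeq table of GRCm38.p6 (10839 of 10855 probe sets with 1 symbol matched). No probe set with several symbols held an AP-1 gene.

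Arrays were scaled to a common 2% trimmed mean, the 20th percentile of the mean signals (60.6) was added, and log2 was taken. The 66 control probe sets and those with a mean below the 40th percentile were left out. limma 3.58.1 in R 4.3.3 (lmFit, eBayes with trend) compared the groups, two-sided, with 2 residual degrees of freedom, or 11.6 with the prior. The fit was tested on simulated data.

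The number of arrays limits the precision. The labels do not say how the 5 mice were pooled, so p-values cannot be taken to measure the spread between mice. They rest on the spread between these arrays and on variances shared across probe sets. The design text speaks of further cross-animal comparisons. From this wording same-numbered arrays were taken to share animals, an inference that the labels do not state. Deviations of same-numbered arrays from the group means correlated with r = 0.27 over probe sets, in 2 pairs, which does not settle it. A block on the replicate number was an alternative fit.

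Genes named were all AP-1 probe sets, the 5 probe sets nearest to Fos, the 4 genes with the smallest p of each of 5 related lists, and the 2 brightest of each of 7 marker lists. Outside this rule, Grin2b, Vip and Slc1a2 of the marker lists were named after their values were seen. The genes and lists were chosen with earlier results of these data known. Alternatives covered scaling, pseudocount, filter, variance model, the block and leaving out each array.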

Additional observations from a re-analysis of the deposited data

How the results depend on the processing

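The 3 AP-1 calls became 0 with a common median, with quantile normalization and without the variance trend, where limma left 3, 4 and 4 of the tested AP-1 probe sets at an unadjusted p under 0.05. The 8 probe sets called in all became 3, 1 and 0 under these settings, with 282, 474 and 390 at an unadjusted p under 0.05 in limma. With the replicate block, which had 13.3 degrees of freedom with its prior, the count over all probe sets became 40. It changed no other call of an AP-1 probe set or a named gene beyond those given above. With 1 array left out, counts over all probe sets ran from 5 to 90, AP-1 counts from 2 to 3 and the AP-1 median from -0.92 to -0.45; these fits assume that a lone array varies like the other group. A filter at the 60th percentile, which drops Fosl2 and Atf3, gave a median of -0.95. Without non-deprived array 2 the estimates of Fosl2 and Jund turned to 0.11 and 0.12, and without deprived array 1 that of Jund to 0.11; the lowest with 1 array left out were -1.13 and -0.44. Of 101 values of single AP-1 probe sets under the alternatives, 88 kept their direction and their call, 10 lost the call, 0 gained one and 3 changed sign. Other causes were not tested. Detection calls were not used here, so signals near the limit of 142.9, such as those of Fosl2 and the dim probe sets, have unknown background.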
